A study of Mus musculus with 8 samples.

Results

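The genes described here are 9 mouse genes of the T, natural killer (NK) and innate lymphoid programmes: Nfil3, Tox, Zbtb16, Cd7, Lat, Cd3e, Il2ra, Il2rb and Klrd1. They were taken by symbol from the 39179 gene IDs listed in each library, and all 9 were found. RNA was sequenced in 2 groups of 4 libraries from C57BL/6 mouse bone marrow. The cCLP group held common lymphoid progenitors (CLPs) sorted after 2 months of culture on the mouse stromal line OP9, with Flt3L and low-dose IL-7 in the medium. The ex vivo CLP group held CLPs sorted directly from marrow. The same gate was used for both, namely no lineage markers, no Ly6d, and presence of CD27, the IL-7 receptor and Flk2, which Flt3 encodes, and no allele, transgene or other treatment is named for either group. The labels name no animal, culture or batch for a replicate, so p-values measure only the spread between these libraries, which may be technical.

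CLPs are progenitors that give rise to B cells, T cells, NK cells and innate lymphoid cells. In textbook accounts, the path to NK and innate lymphoid cells runs through precursors that switch on transcription factors such as Nfil3, Tox, Id2 and, in the innate lymphoid branch, Zbtb16. Commitment to T cells follows Notch signals in the thymus and brings the CD3 chains and the signalling adaptor Lat into use. IL-2 and IL-15 share the receptor chains encoded by Il2rb and Il2rg, while Il2ra adds high affinity for IL-2. Klrd1 encodes CD94, a lectin-like chain that pairs with NKG2 proteins on NK cells.

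Each gene's deposited value was a whole number on a scale that no label names. These values varied less between libraries than read counts can, so sequencing depth cannot be read from them. Per library they summed to 434009 to 604733 in cCLPs and to 378594 to 704305 in ex vivo CLPs. Below, a listed value is the deposited number, and a scaled value is that number divided by a library factor. The libraries labelled cCLP 1 and ex vivo CLP 2 lay with the other group. Whether their labels were exchanged was not tested, and if they were, the 8-library values below would mix the groups. On an axis from 0 (mean of ex vivo CLP 1, 3 and 4) to 1 (mean of cCLP 2, 3 and 4) over all genes, cCLP 1 lay at 0.056 and ex vivo CLP 2 at 0.979. Results for the members are therefore given over the 8 libraries as labelled and over the 6 that remain without these 2. For the gene lists, fold changes and called counts are given over the 6 only, and 0 genes were called over the 8. The 6 were chosen after the profiles had been seen, no library was moved, and p-values over them hold only given that choice. The sort genes Flt3 and Cd27 were listed at 227 to 333 and 68 to 105 in cCLPs and at 171 to 288 and 56 to 113 in ex vivo CLPs. Il7r was listed at 28 to 256 in cCLPs and 14 to 193 in ex vivo CLPs. Ly6d, whose product was sorted against, was listed at 22 in cCLP 1, at 1 in each of cCLP 2 to 4, and at 28, 0, 28 and 41 in ex vivo CLP 1 to 4. These are bulk libraries, in which fewer cells that express a gene and less RNA per cell cannot be told apart.

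Promoter windows of 300 bases, from 250 before to 50 after the transcription start, are shown for Nfil3 and Lat, the members of the 4 with a RefSeq promoter entry (build GRCm38.p6) whose RNA was detected. Nfil3 lies on chromosome 13 and its window is chr13:52980990-52981289 on the minus strand. Lat lies on chromosome 7 and its window is chr7:126369519-126369818 on the minus strand. Capitals mark matches on either strand to CAGNTG, a form of the E-box bound by E proteins, the lymphoid basic helix-loop-helix factors.
Nfil3: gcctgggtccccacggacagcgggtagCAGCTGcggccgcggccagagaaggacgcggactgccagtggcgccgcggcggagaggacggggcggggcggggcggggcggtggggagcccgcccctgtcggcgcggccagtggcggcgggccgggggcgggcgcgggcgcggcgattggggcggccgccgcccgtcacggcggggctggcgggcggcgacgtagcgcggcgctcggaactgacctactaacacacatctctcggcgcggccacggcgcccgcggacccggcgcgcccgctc
Lat: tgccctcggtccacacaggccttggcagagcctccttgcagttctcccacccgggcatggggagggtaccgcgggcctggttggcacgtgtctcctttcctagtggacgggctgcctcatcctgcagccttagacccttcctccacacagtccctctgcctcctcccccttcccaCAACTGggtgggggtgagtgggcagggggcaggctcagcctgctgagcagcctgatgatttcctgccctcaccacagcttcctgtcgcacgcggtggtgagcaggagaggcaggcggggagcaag
Each window held 1 match, whose first base lay at position -223 from the transcription start in Nfil3 and at -75 in Lat. Of 32851 windows of this length in the table, 51.4% held at least 1, so a match is common and describes these letters only. Guanine and cytosine made up 81.7% of the Nfil3 window and 65.7% of the Lat window. The STAT-type motif TTCNNNGAA and the ETS-type motif CCGGAA, which were in 8.30% and 14.9% of all windows, were found in neither. The RUNX-type motif TGTGGT was in 16.8% of all windows, 1 time in the Lat window and not in the Nfil3 window.

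Of the transcription factor genes, Nfil3 was listed at 1 throughout cCLP 2 to 4, Tox had its highest values there, and Zbtb16 did not exceed 1 in any library. Nfil3 (ENSMUSG00000056749, chromosome 13, 52967209 to 52981073, minus strand, GRCm38) encodes a basic leucine zipper factor that NK and innate lymphoid development needs. It was listed at 36, 1, 1 and 1 in cCLP 1 to 4 and at 37, 1, 23 and 52 in ex vivo CLP 1 to 4. Each labelled group thus held libraries at 1 and libraries at 23 or more, and the groups overlapped. Over the 8 libraries the scaled value averaged 9.32 ± 16.7 (SD, n = 4) in cCLPs and 28.2 ± 19.3 in ex vivo CLPs. The log2 fold change, which is cCLP minus ex vivo CLP of log2(scaled value + 1) throughout, was -2.18 ± 1.28 (SE) with a limma adjusted p = 0.484. It was -3.23 without cCLP 1 and -3.23 without ex vivo CLP 2, with adjusted p = 0.156 and 0.148 by limma.

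Without cCLP 1 and ex vivo CLP 2, Nfil3 averaged 0.963 ± 0.103 (SD, n = 3) in cCLP 2 to 4 and 37.5 ± 8.56 in ex vivo CLP 1, 3 and 4. The log2 fold change was -4.27 ± 0.19 (SE), with a limma adjusted p = 1.15e-06. Because the listed value was 1 in all of cCLP 2 to 4, the SD there reflects only the library factors and the test takes no spread in expression from them. Nfil3 passed the filter on low values (a scaled value of 10 or more in at least 3 of the 6 libraries, or 4 of the 8) through ex vivo CLP 1, 3 and 4 alone, which fixed its direction.

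Tox (ENSMUSG00000041272, chromosome 4, 6686353 to 6991557, minus strand) encodes a high mobility group box factor needed for CD4 T cells, NK cells and innate lymphoid progenitors. Listed values were 3, 12, 10 and 13 in cCLP 1 to 4 and 2, 7, 1 and 3 in ex vivo CLP 1 to 4. The libraries at 7 or more were cCLP 2 to 4 and ex vivo CLP 2, the libraries in which Nfil3 was listed at 1. Scaled values averaged 9.04 ± 4.29 (SD, n = 4) in cCLPs and 3.40 ± 2.94 in ex vivo CLPs, with an exact two-sided permutation p = 0.0571, where 4 libraries against 4 allow no p below 0.0286. Over the 6 libraries the means were 11.2 ± 1.53 (SD, n = 3) in cCLP 2 to 4 and 1.97 ± 0.644 in ex vivo CLP 1, 3 and 4, and these did not overlap. The exact permutation p was 0.1, the smallest that 3 libraries against 3 can give. Tox missed the filter on low values in both comparisons. With no filter, the log2 fold change was 1.24 (limma adjusted p = 0.532) over the 8 libraries and 2.05 (limma adjusted p = 0.000158) over the 6. A pseudocount of 5 in place of 1 gave 0.73 over the 8 libraries and 1.22 over the 6.

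Zbtb16 (ENSMUSG00000066687, chromosome 9, 48654297 to 48836222, minus strand) encodes PLZF, the zinc finger factor that marks innate lymphoid precursors and innate-like T cells. It was listed at 0 in each cCLP library, and at 0, 0, 0 and 1 in ex vivo CLP 1 to 4. No difference can be read from a single value of 1.

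**Figure D1:**
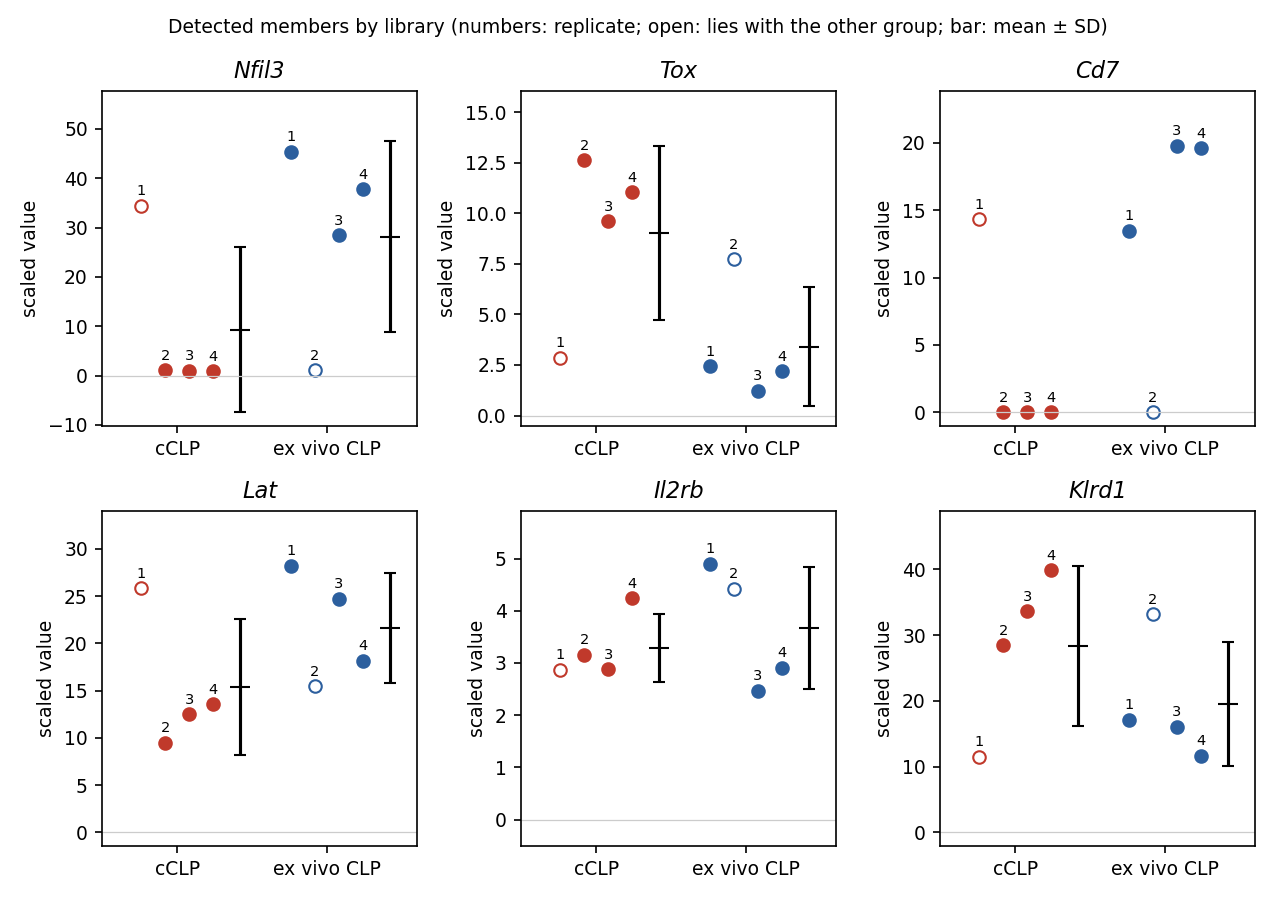
Scaled value (deposited value divided by the library factor) of the 6 members with values above 1 in any library, by labelled group. Each point is 1 library with its replicate number, open points are cCLP 1 and ex vivo CLP 2, and black bars are the mean ± SD of 4 libraries (not drawn for Cd7, which is listed at 0 in several libraries). In Nfil3, Cd7 and Lat the open cCLP point lies above the other cCLP points, and in Tox and Klrd1 it lies below them.

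Of the surface and signalling genes of T cells, Cd7 was listed in some libraries and at 0 in the rest, Lat was present in every library at a lower level in cCLP 2 to 4, and Cd3e was listed at 0 throughout. Cd7 (ENSMUSG00000025163, chromosome 11, 121036747 to 121039418, minus strand) encodes an immunoglobulin-family surface protein of early T and NK lineage cells. It was listed at 15, 0, 0 and 0 in cCLP 1 to 4 and at 11, 0, 16 and 27 in ex vivo CLP 1 to 4. The libraries at 0 were the ones in which Nfil3 was listed at 1. Over the 8 libraries the groups overlapped and the log2 fold change was -2.16 ± 1.58 (SE, limma adjusted p = 0.494). In the 6-library comparison, Cd7 was at 0 in all of cCLP 2 to 4, against scaled values of 17.8 ± 3.62 (SD, n = 3) in ex vivo CLP 1, 3 and 4 (limma adjusted p = 1.76e-06). As for Nfil3, the filter fixed the direction, and the zeros add no spread to the test. An annotated antisense gene, Gm11775, overlaps Cd7 on the other strand and was listed at 0 in all 8 libraries, as were Gm11802, antisense to Tox, and Mir7058, which lies in Lat.

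The myeloid markers and the mast cell and basophil markers moved with Nfil3 and Cd7. The plasmacytoid dendritic cell markers as a sum did not. Their summed scaled value was 509.6 to 627.3 in cCLP 2 to 4 and 476.9 to 545.7 in ex vivo CLP 1, 3 and 4. The summed scaled value of 12 myeloid marker genes was 269.5 to 299.7 in cCLP 2 to 4 and 1341 to 3078 in ex vivo CLP 1, 3 and 4, with 1712 in cCLP 1 and 169.2 in ex vivo CLP 2. In cCLP 2 to 4, 7 of these 12 were at 0 in every library (Elane, Ctsg, Csf1r, Csf3r, S100a8, S100a9 and Cebpe), and none of the 12 was at 0 in all of ex vivo CLP 1, 3 and 4. The 8 mast cell and basophil markers summed to 0 in cCLP 2 to 4 and in ex vivo CLP 2, to 25.8 in cCLP 1, and to 22.1 to 71.7 across ex vivo CLP 1, 3 and 4. The 10 erythroid and megakaryocyte markers, none listed above 17, moved the same way. They summed to 4.2 to 7.7 in cCLP 2 to 4 and 3.3 in ex vivo CLP 2. The sum was 17.2 in cCLP 1 and 9.8 to 51.9 across ex vivo CLP 1, 3 and 4. The part of these cell types in the Nfil3 and Cd7 values was not tested.

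Lat (ENSMUSG00000030742, chromosome 7, 126363824 to 126369570, minus strand) encodes the membrane adaptor that links the T cell receptor to downstream signalling. Its listed values were 27, 9, 13 and 16 in cCLP 1 to 4 and 23, 14, 20 and 25 in ex vivo CLP 1 to 4. No library was at 0, and the lowest scaled values were those of cCLP 2 to 4 and ex vivo CLP 2. Over the 8 libraries the scaled value averaged 15.3 ± 7.20 (SD, n = 4) in cCLPs and 21.6 ± 5.85 in ex vivo CLPs, a log2 fold change of -0.53 ± 0.30 (SE, limma adjusted p = 0.484). It was -0.80 without cCLP 1 and -0.34 without cCLP 2. In the 6-library comparison Lat fell to 11.96 ± 2.15 (SD, n = 3) in cCLP 2 to 4, against 23.9 ± 5.14 in ex vivo CLP 1, 3 and 4. The log2 fold change was -0.94 ± 0.18 (SE, 95% interval -1.36 to -0.51, limma adjusted p = 0.00459). The filter did not fix this direction, since Lat was above 10 in libraries of both groups.

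Cd3e (ENSMUSG00000032093, chromosome 9, 44998740 to 45009627, minus strand) encodes the epsilon chain of the CD3 complex. It was listed at 0 in all 8 libraries. The genes of its partner chains were listed at 0 or 1, Cd3d at 1 in ex vivo CLP 4 alone and Cd3g at 1 in ex vivo CLP 3 and 4 alone. Of 7 T cell receptor constant region and pre-T genes found, including the chain gene Ptcra, none exceeded 4 in any library, and all were at 0 in cCLP 2 to 4. The highest value was 4, for Tcrg-C1 in ex vivo CLP 1, and Trbc1 and Trbc2 did not exceed 2.

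Of the IL-2 receptor chains among the members, Il2ra was not listed above 0 and Il2rb was low and even. Il2ra (ENSMUSG00000026770, chromosome 2, 11642807 to 11693193, plus strand) encodes CD25 and was listed at 0 in all 8 libraries. Il2rb (ENSMUSG00000068227, chromosome 15, 78479256 to 78495271, minus strand) encodes CD122, the signalling chain shared by IL-2 and IL-15. Listed values were 3, 3, 3 and 5 in cCLP 1 to 4 and 4, 4, 2 and 4 in ex vivo CLP 1 to 4. Scaled values averaged 3.29 ± 0.651 (SD, n = 4) in cCLPs and 3.68 ± 1.17 in ex vivo CLPs, with an exact two-sided permutation p = 0.657. Unlike the other members above 1, Il2rb gave overlapping values also over the 6 libraries, 3.46 ± 0.727 (SD, n = 3) in cCLP 2 to 4 and 3.46 ± 1.31 in ex vivo CLP 1, 3 and 4 (exact permutation p = 1). At these values a step of 1 is a large part of the level, so a moderate difference could not be seen.

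Klrd1 (ENSMUSG00000030165, chromosome 6, 129591782 to 129598775, plus strand), the CD94 gene, was listed in every library. Its values were 12, 27, 35 and 47 in cCLP 1 to 4 and 14, 30, 13 and 16 in ex vivo CLP 1 to 4. The 4 highest libraries were cCLP 2 to 4 and ex vivo CLP 2. Over the 8 libraries the scaled value averaged 28.4 ± 12.2 (SD, n = 4) in cCLPs and 19.5 ± 9.42 in ex vivo CLPs, a log2 fold change of 0.49 ± 0.42 (SE, limma adjusted p = 0.539). It was 0.85 without cCLP 1, 0.77 without ex vivo CLP 2, 0.29 without cCLP 4 and 0.28 without ex vivo CLP 4. Without cCLP 1 and ex vivo CLP 2, Klrd1 rose to 34.3 ± 5.80 (SD, n = 3) in cCLP 2 to 4, against 15.1 ± 2.96 in ex vivo CLP 1, 3 and 4. The log2 fold change was 1.14 ± 0.17 (SE, 95% interval 0.74 to 1.53, limma adjusted p = 0.00119). Scaled values were above 10 in all 8 libraries, so the filter did not fix the direction. The partner genes Klrc1, Klrc2 and Klrc3, which encode NKG2 proteins, were at 0 in all 8 libraries.

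Over the 8 libraries, 4 members (Nfil3, Cd7, Lat and Klrd1) passed the filter and 0 were called at a limma adjusted p below 0.05, where 0% of the 6486 genes tested were called and 477 had an unadjusted p below 0.05. The labelled groups overlapped for all 9 members, and 3.48% of the genes tested had groups that did not overlap. Over the 6 libraries the same 4 passed and 4 were called, where 43% of the 6573 genes tested were called. The exact permutation p over the 6 was 0.1 for each of the 4, as for Tox, the smallest that 3 libraries against 3 can give. Nfil3, Cd7 and Lat were lower, the direction of Nfil3 and Cd7 being fixed by the filter, and Klrd1 was higher. Among the genes tested 22.2% were lower and 20.8% higher, and nothing is read from the members' directions against these shares. They did not overlap between the groups, as did 55.7% of the genes tested, so this separation is not particular to them. The remaining 5 members (Tox, Zbtb16, Cd3e, Il2ra and Il2rb) were too low to enter the fit.

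**Figure D2:**
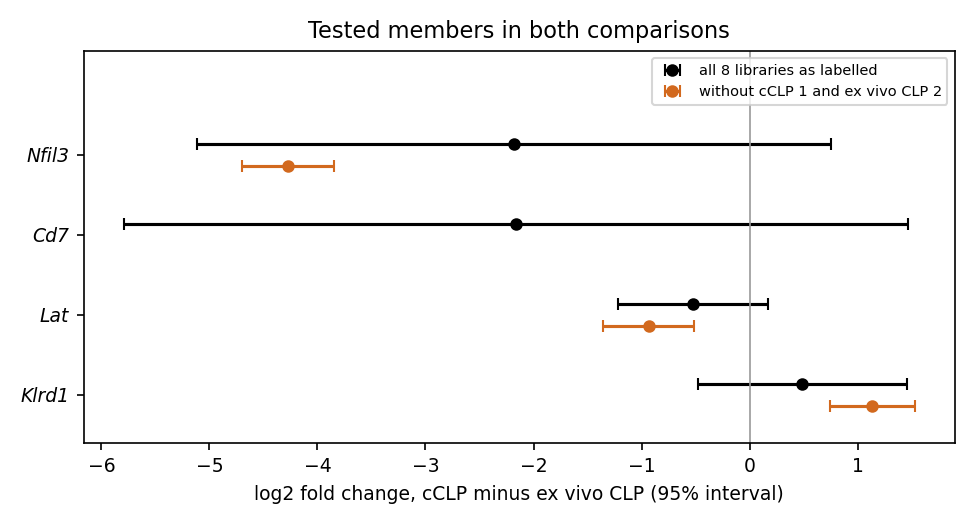
Log2 fold change (cCLP minus ex vivo CLP, on log2(scaled value + 1)) with its 95% interval for the 4 members tested, over all 8 libraries (black) and without cCLP 1 and ex vivo CLP 2 (orange). The black intervals all cross 0, and the orange ones lie below 0 for Nfil3 and Lat and above 0 for Klrd1; no orange point is drawn for Cd7, which is listed at 0 in cCLP 2 to 4.

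The other genes of these programmes went both ways over the 6 libraries, and none was called over the 8. Among all 6573 genes tested over the 6 libraries, 20.8% were called higher and 22.2% lower. The counts of each list below were not tested against these shares. Of 22 innate lymphoid transcription factor genes, 5 were tested, of which 1 was higher and 2 were lower (median log2 fold change 0.21, against 0.005 for all genes tested). Ets1, an ETS factor needed for NK cells, rose to 21.7 ± 1.12 (SD, n = 3) in cCLP 2 to 4, against 10.3 ± 5.01 in ex vivo CLP 1, 3 and 4 (log2 fold change 1.09, limma adjusted p = 0.0120). Zeb2 and Runx1 fell (log2 fold changes -0.90 and -0.73), and both had scaled values below 10 in each of cCLP 2 to 4, so the filter fixed their direction. The lower count was 5 without ex vivo CLP 1, and the higher count was 2 without ex vivo CLP 3. Of the 22 genes, 11 never exceeded 4. Among these were Gata3, at most 1, and Tcf7, listed at 4, 0, 0 and 0 in cCLP 1 to 4 and 3, 0, 1 and 2 in ex vivo CLP 1 to 4, both regulators of early T and innate lymphoid cells.

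Genes of the signalling chain in which Lat acts were called in both directions. In the T cell receptor signalling list, 17 of 28 genes were tested over the 6 libraries, of which 10 were higher and 3 were lower (median log2 fold change 0.44). Lat2, a related adaptor of B and myeloid cells, averaged 300.2 ± 18.5 (SD, n = 3) in cCLP 2 to 4 and 154.5 ± 10.2 in ex vivo CLP 1, 3 and 4 (log2 fold change 0.95 ± 0.11 SE, limma adjusted p = 0.000219). Grap2, which encodes Gads, the adaptor that joins LAT to SLP-76, rose to 19.5 ± 1.53, against 3.05 ± 0.616 (log2 fold change 2.35 ± 0.16 SE, limma adjusted p = 1.16e-05). Lcp2, which encodes SLP-76 itself, was listed at 16, 0, 0 and 0 in cCLP 1 to 4 and at 10, 0, 11 and 24 in ex vivo CLP 1 to 4. The Src family kinase gene Fyn and the co-receptor gene Cd28 rose (log2 fold changes 1.17 and 1.29), while the membrane adaptor gene Pag1 and the phosphatase gene Ubash3a fell (-1.30 and -1.02). The filter fixed the direction of Grap2, Lcp2, Cd28, Pag1 and Ubash3a. Lck, the kinase that acts first at the T cell receptor, averaged 15.6 ± 1.82 and 25.2 ± 11.4 in these groups (log2 fold change -0.58 ± 0.27 SE, limma adjusted p = 0.116). Lat2 and Lck are named after their values were seen.

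Of 22 other T and NK surface protein genes, 6 were tested over the 6 libraries, of which 2 were higher and 4 lower (median log2 fold change -0.84). Itgb7, an integrin chain gene, fell to 3.85 ± 0.412 (SD, n = 3) in cCLP 2 to 4, against 76.1 ± 18.1 in ex vivo CLP 1, 3 and 4 (log2 fold change -3.96, limma adjusted p = 1.38e-06). Its partner chain gene Itga4 went the other way, 46.3 ± 3.12 and 33.0 ± 9.20 (log2 fold change 0.51, limma adjusted p = 0.0488). That call ended under 10 of 14 other settings, with limma adjusted p up to 0.149 without cCLP 4, and the higher count was 1 without cCLP 3 or without cCLP 4. Cd244a, an NK receptor gene of the SLAM family, rose by 0.81, and its ligand gene Cd48 fell by 0.94 on the log2 scale, both present in every library. Cd84 fell by 1.66 on the log2 scale, with its direction fixed by the filter, as for Itgb7.

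In the IL-2 and IL-15 receptor list, 12 of 19 genes were tested over the 6 libraries, of which 3 were higher and 5 lower (median log2 fold change -0.13). Il2rg, the gamma chain that Il2rb pairs with, rose to 31.0 ± 4.49 (SD, n = 3) in cCLP 2 to 4, against 16.6 ± 0.663 in ex vivo CLP 1, 3 and 4 (log2 fold change 0.86 ± 0.12 SE, limma adjusted p = 0.000874). It was listed at 18, 33, 27 and 37 in cCLP 1 to 4 and at 14, 24, 13 and 22 in ex vivo CLP 1 to 4. Il7r, whose product also pairs with the gamma chain, rose by 2.86 on the log2 scale (limma adjusted p = 0.00457), and by 3.53 without ex vivo CLP 1. The feedback inhibitor gene Socs2 rose by 4.13 and Socs3 fell (limma adjusted p = 7.7e-06), each with its direction fixed by the filter. Il4ra and Bcl2 also fell, by 1.28 and 1.26. Of the ligand and private receptor genes, Il2 was at 0 in all libraries. Il15 was listed at 9, 0, 0 and 0 in cCLP 1 to 4 and at 6, 0, 10 and 12 in ex vivo CLP 1 to 4, and Il15ra was at 3, 0, 0 and 0 in cCLP 1 to 4 and at 2, 0, 2 and 3 in ex vivo CLP 1 to 4.

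Around Klrd1, 22 NK receptor and adaptor genes were listed and 11 were at 0 in all 8 libraries. Over the 6 libraries 6 were tested, of which 3 were higher and 2 lower (median log2 fold change 0.41). Klri1, a lectin-like receptor gene, was listed at 0, 31, 32 and 52 in cCLP 1 to 4 and at 0, 37, 0 and 0 in ex vivo CLP 1 to 4. Klre1, which encodes its partner, did not exceed 1. Klra1, of the Ly49 family, was listed at 1, 16, 15 and 21 in cCLP 1 to 4 and at 0, 14, 1 and 2 in ex vivo CLP 1 to 4, and near-identical family members make its value uncertain. Fcer1g, an adaptor gene shared by NK and myeloid cells, rose by 1.31 on the log2 scale (limma adjusted p = 0.00139). Klrb1f and the adaptor gene Hcst, which encodes DAP10, fell by 1.54 and 2.19. For these, as for Klri1 and Klra1, the direction was set by the filter. The activating receptor gene Klrk1 (NKG2D) was at 3, 0, 0 and 0 in cCLP 1 to 4 and at 2, 0, 5 and 7 in ex vivo CLP 1 to 4.

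**Figure D3:**
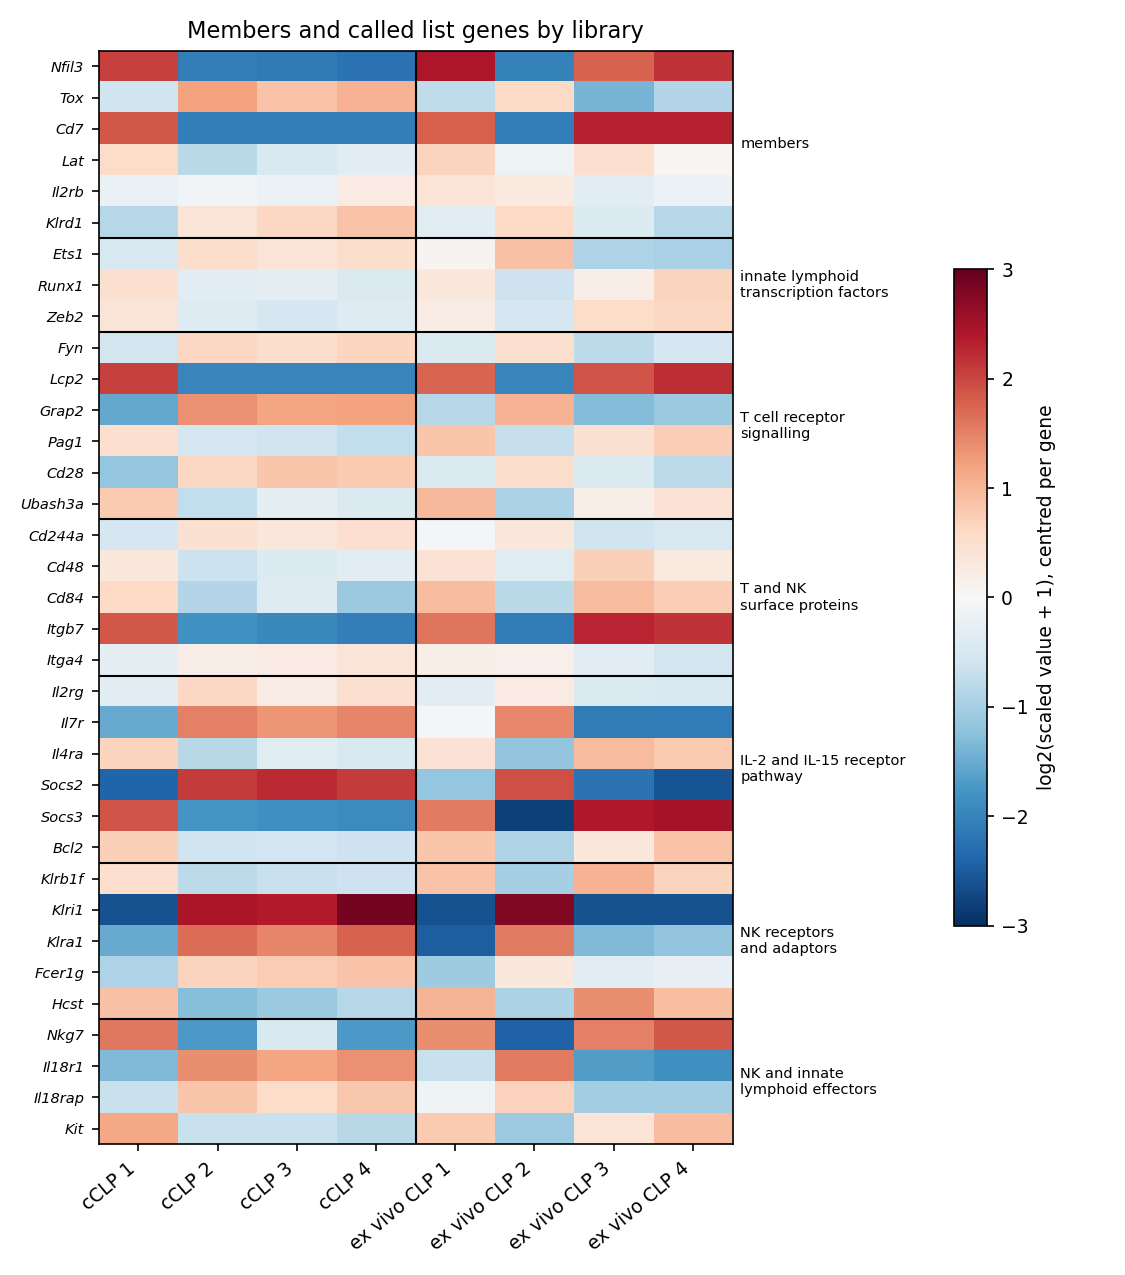
log2(scaled value + 1), centred on each gene's mean over the 8 libraries, for the 6 members with values above 1 and the named list genes called over the 6 libraries, with cCLP 1 to 4 left of ex vivo CLP 1 to 4. In Nfil3, Cd7, Lcp2 and Itgb7 the columns cCLP 2 to 4 and ex vivo CLP 2 are blue, and in Tox, Klrd1, Klri1, Socs2 and Grap2 they are red.

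Of 22 effector genes of NK and innate lymphoid cells, 5 were tested over the 6 libraries, with 2 higher and 2 lower (median log2 fold change -0.17). Il18r1 and Il18rap, which encode the chains of the IL-18 receptor, rose by 2.71 and 1.46 on the log2 scale (limma adjusted p = 0.000201 and 0.0021). Nkg7, a granule protein gene of cytotoxic cells, fell by 2.89 (limma adjusted p = 0.000344) and Kit fell by 1.44. Of the 22 genes, 14 were at 0 in all of cCLP 2 to 4, and 8 were at 0 in all of ex vivo CLP 1, 3 and 4. The cytotoxic and cytokine genes Gzma and Ifng were at 0 in all 8 libraries, and Gzmb, Prf1 and Ccl5 did not exceed 2 in any.

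The profiles most like each tested member were found by the root mean square difference of centred log2(scaled value + 1) over the 8 libraries, among 6486 genes. The nearest to Nfil3 were Armcx3 (0.113) and Dkkl1 (0.136), both listed at 12 to 23 where Nfil3 was high and at 0 elsewhere. Those nearest to Cd7 were Csrp2 (0.124) and Itgb7 (0.127). Those nearest to Lat were Slain1 (0.162) and Fbxo7 (0.166), and those nearest to Klrd1 were Retreg1 (0.131) and Hist2h2be (0.145). These distances describe likeness over 8 libraries that fall into 2 sets, and carry no test.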

How the data were processed

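RNA was sequenced as paired reads of 75 nt from 100 ng of total RNA with a stranded, ribosomal RNA-depleted kit, per the labels' protocols. The submitters' processing notes name TopHat2, Bowtie2, HTSeq 1.0.6 and GRCm38 (mm10). The strand setting, annotation release and later scaling are not given in the sources used here. Each deposited file gives every Ensembl gene ID a score, which is a whole number on a scale not named. Between cCLP 3 and 4 the dispersion index was 0.260 over 6793 genes, where simulated Poisson counts gave 0.991, so no count model was used and no counting interval can be given. Symbols and positions came from GENCODE vM21 (37693 of 39179 IDs matched). A total of 0 library pairs were identical.

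Library factors came from log ratios averaged after trimming 30% of ratios and 5% of levels. Genes entered a fit with scaled values of 10 or more in at least 3 of 6 or 4 of 8 libraries. log2(scaled value + 1) was fitted on group with limma 3.58.1 (trend, robust) in R 4.3.3 on all such genes, with two-sided p-values and Benjamini-Hochberg adjustment across all of them. The added 1 makes fold changes of low genes smaller than the ratio of means. The fit was tested on simulated data. The members and gene lists were chosen with earlier results of these data known. Named list genes were the called members over 6 libraries, at most 3 per direction and list. Other list genes are named outside that rule, among them Lat2, Lck, Il15, Elane, Csf1r, Bst2, Cd79a, Ebf1 and Blnk. The 2 genes nearest to each tested member were also named. Alternatives were other library factors, no filter, pseudocounts of 0.5 and 5, no trend or robust moderation, a replicate block and leaving out each library.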

Additional observations from a re-analysis of the deposited data

Results flagged for a closer look

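In groups of 4 libraries, a library was set aside for a closer look when its gap to the nearest other library, divided by the range of the group, exceeded Dixon's 95% critical value. For normally distributed values chance flags about 1 in 20 groups. That rate does not hold for whole numbers near 0. A group at 0 in all libraries but 1 always gives a ratio of 1, as for Cd7 and Zbtb16 below. Nfil3 in cCLP 1 had a scaled value of 34.4, against 0.849 to 1.05 in cCLP 2 to 4 (ratio 0.994). Cd7 in cCLP 1 had a scaled value of 14.3, against 0 in cCLP 2 to 4. Zbtb16 in ex vivo CLP 4 had a scaled value of 0.727, which is a listed value of 1, against 0 in ex vivo CLP 1 to 3. In cCLP 1, whose profile lay with ex vivo CLP 1, 3 and 4, the Nfil3 and Cd7 values were within 28.4 to 45.4 and 13.5 to 19.8, the ranges of those libraries.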

How the results depend on the processing

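Over the 8 libraries, 0 genes were called higher and 0 lower under each alternative, apart from leaving out ex vivo CLP 2 and cCLP 1 together, which gave 1369 and 1459. The 4 tested members kept their sign under each of the 18 alternatives run and were called only without those 2 libraries. Over the 6 libraries, no filter on low values gave 2215 genes higher and 2761 lower, and leaving out 1 library gave 889 (without cCLP 4) to 1584 higher and 1217 to 1824 lower, and the cause of these moves was not tested. Lat and Klrd1 kept their direction and their call under all 14 alternatives, with log2 fold changes of -1.11 to -0.66 for Lat and 0.97 to 1.36 for Klrd1. The ends -0.66 and 1.36 came from the replicate block. Over the 6 libraries only numbers 3 and 4 occur in both groups, so the block takes the difference from those libraries alone. It leaves little spread to test against, so calls under it say nothing of stability. Nfil3 ranged from -4.68 to -2.81 (with a pseudocount of 5). Its calls and those of Cd7 also held, but their direction was fixed by the filter and their listed values do not vary in cCLP 2 to 4, so this says nothing of stability. The replicate block gave 0 and 0 calls over the 8 libraries and 1227 higher and 1271 lower over the 6, the latter with the limit given above. Nothing in the labels says that a number marks shared material. Same-numbered libraries correlated at 0.595, 0.843, -0.575 and -0.86 in their deviations from the labelled group means, but cCLP 1 and ex vivo CLP 2 lie so far from their groups that these values do not show whether the numbers pair the libraries. Depth is unknown, so a gene listed at 0 is not shown to be absent.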

Other observations

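Marker genes of other cell types that the sorts could hold were listed as follows. Of all genes tested over the 6 libraries, 20.8% were called higher and 22.2% lower, and the marker counts were not tested against these shares. Of 8 plasmacytoid dendritic cell markers, 7 were tested over the 6 libraries, of which 2 were higher (Ccr9 and Cox6a2) and 4 lower (Irf8, Ly6d, Siglech and Bst2). The filter fixed the direction of Ccr9, Irf8, Ly6d and Siglech, but not that of Cox6a2 or Bst2. Bst2 averaged 42.5 ± 6.16 (SD, n = 3) in cCLP 2 to 4 and 176.8 ± 35.5 in ex vivo CLP 1, 3 and 4. Cox6a2 averaged 254.5 ± 58.1 (SD, n = 3) in cCLP 2 to 4 and 73.6 ± 9.28 in ex vivo CLP 1, 3 and 4, while Siglech averaged 2.50 ± 1.41 and 43.0 ± 6.37 in the same groups. Of 12 myeloid markers, 10 were tested and 10 were lower, 9 of them with a direction fixed by the filter on low values. The 1 mast cell marker tested, Mcpt8, was listed at 0 in cCLP 2 to 4 and at 9, 35 and 46 in ex vivo CLP 1, 3 and 4. Of 9 B lineage markers, the 1 tested, Cd79b, was lower (2.14 ± 1.20 in cCLP 2 to 4, 36.2 ± 4.17 in ex vivo CLP 1, 3 and 4), and 2 were lower when any library but ex vivo CLP 4 was left out. Markers below the filter went both ways. Cd79a was listed at 0, 7, 7 and 16 in cCLP 1 to 4 and at 1, 27, 1 and 1 in ex vivo CLP 1 to 4. Ebf1 was at 1, 7, 6 and 9, and at 1, 8, 0 and 0, in the same order. Blnk went with Cd79b, at 13, 1, 3 and 2, and at 20, 5, 8 and 16. None of the 10 erythroid and megakaryocyte markers or the 10 stromal markers passed the filter, although 1 or 2 erythroid and megakaryocyte markers were lower without cCLP 2, 3 or 4 or without ex vivo CLP 1, and 9 of the 10 stromal markers were at 0 in all 8 libraries.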
